A study of Drosophila melanogaster with 2 samples.

Results

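Distal intergenic peaks of Dan are the binding regions that lie between genes and away from every annotated start of a protein-coding gene. A peak was counted as one when its summit lay more than 500 bp from every protein-coding transcription start site (TSS) and in no protein-coding gene body or annotated exon. It was not counted when it lay between divergent starts that were both within 1000 bp. By this rule 303 of the 1301 peaks on the chromosome arms were distal intergenic, which is 23.3% (95% interval 21.0 to 25.7%). The whole list held 1396 peaks, 95 of them off the arms. Among the peaks of the list the rule used position alone, and signal and sequence played no part in it. The list itself holds only regions past the authors' threshold, so members were also chosen by that threshold. Of all 127141 ranked regions on the arms, most of which did not pass the threshold, 27.1% lay in the same places. The remaining peaks on the arms comprised 406 in introns, 259 at single promoters, 209 between divergent gene starts and 124 in exons.

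The peaks come from chromatin immunoprecipitation followed by sequencing (ChIP-seq) on whole Drosophila melanogaster embryos aged 0 to 8 h. The flies were of the strain labelled dan-GFP, with an insertion targeting dan, and made a dan-eGFP fusion protein, in which eGFP is a green fluorescent tag, and the fusion was precipitated with an antibody against GFP after sonication to 200 to 800 bp. All samples belonged to 1 group of 2 biological replicates, and no second genotype, treatment or age was compared. Which flanking sequence or promoter the inserted construct carries is not given in the sources used here. The lists hold a signal per region and no reads, so the depth is unknown. In whole embryos, binding in fewer cells and weaker binding in each cell cannot be told apart. Regions of 1 library are not replicates, so shares are given with exact Clopper-Pearson intervals that cover counting error only, and no p-value was computed.

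Dan, the product of distal antenna, is a nuclear protein with a DNA-binding domain of the Pipsqueak type. Its gene helps to specify the antenna and acts with a neighbouring gene, distal antenna-related (danr), in the eye and in the neuroblasts of the embryonic nerve cord. Sequence far from gene starts holds many of the enhancers that switch developmental genes on and off in the fly embryo, and an enhancer does not always act on the gene whose start is nearest. The nearest gene is therefore used here as an address and not as a target.

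The 6 windows that follow, each running 100 bp either side of a summit, show the sequence at the strongest members, at members with an extended string and at a weak member. All are intergenic by the rule and are given from the plus strand of the RefSeq Release 6 genome (dm6), and capitals mark the string CAGTG or its reverse complement. The strongest member, 3171 bp from the start of tara, lay at chr3R:16222380-16222580 and held 1 copy. The member 670 bp from RasGAP1 lay at chr3L:9855855-9856055 and, at the same order of signal, held none. The next 3 are among the strongest that hold the longer string TCTCAGTG and were in both replicates' lists: slp2 at chr2L:3832419-3832619, Reg-2 at chr3L:621462-621662 and CG31797 at chr2L:19226436-19226636. CG4218 at chr2L:14552442-14552642 is among the weakest members and has a GC content of 60.2%.
tara: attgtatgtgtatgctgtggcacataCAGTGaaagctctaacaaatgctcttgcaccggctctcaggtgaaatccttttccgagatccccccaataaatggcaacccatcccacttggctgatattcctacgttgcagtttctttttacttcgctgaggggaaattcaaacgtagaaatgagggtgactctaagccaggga
RasGAP1: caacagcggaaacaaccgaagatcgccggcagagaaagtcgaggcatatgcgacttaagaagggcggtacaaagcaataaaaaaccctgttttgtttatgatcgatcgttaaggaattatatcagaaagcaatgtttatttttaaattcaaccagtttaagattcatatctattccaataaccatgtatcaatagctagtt
slp2: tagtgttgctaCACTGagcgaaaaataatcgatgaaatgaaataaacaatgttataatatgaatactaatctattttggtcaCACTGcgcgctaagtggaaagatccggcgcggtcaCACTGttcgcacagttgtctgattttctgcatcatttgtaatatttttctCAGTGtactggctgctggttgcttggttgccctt
Reg-2: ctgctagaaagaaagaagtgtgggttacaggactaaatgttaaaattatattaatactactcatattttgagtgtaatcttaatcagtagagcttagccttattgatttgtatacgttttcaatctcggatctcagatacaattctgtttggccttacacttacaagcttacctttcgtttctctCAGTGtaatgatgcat
CG31797: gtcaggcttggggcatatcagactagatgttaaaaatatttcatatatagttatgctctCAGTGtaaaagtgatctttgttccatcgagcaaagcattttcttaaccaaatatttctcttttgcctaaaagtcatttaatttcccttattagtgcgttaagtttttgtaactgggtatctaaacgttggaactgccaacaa
CG4218: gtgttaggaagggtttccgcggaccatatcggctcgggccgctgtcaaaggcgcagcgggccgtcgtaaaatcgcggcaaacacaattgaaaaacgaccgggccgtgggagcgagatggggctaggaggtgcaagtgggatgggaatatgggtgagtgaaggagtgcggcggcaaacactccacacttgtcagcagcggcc

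A copy reads away from the summit when it stands on the minus strand to the left of it or on the plus strand to the right. The slp2 window held 4 copies, and 3 of them read away from the summit. The single copy at Reg-2 read away from the summit, while those at tara and CG31797 read toward it.

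The 20 strongest members had signals of 225.6 to 530.4, against a median of 88.8 over all members (quartiles 73.0 and 119, range 3.47 to 530.4). The signal is the authors' value per region and its scale is not stated, so it is compared only within a list. All 20 overlapped the list of replicate 1 and 18 overlapped that of replicate 2, where CG5103 and CheA75a had no ranked region. In the ranked lists of the replicates themselves they ranged from 124 to 321 in replicate 1 and, for the 18, from 90.8 to 244 in replicate 2. The nearest TSS lay at a median of 5020 bp. Their mean GC content was 37.6% ± 5.29 (SD, n = 20), none lay in a transposable element, and 13 held CAGTG.

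The strongest of all, near tara, a nuclear co-regulator gene of the Trithorax group, had a signal of 530.4, with 283 in replicate 1 and 244 in replicate 2. A member with a signal of 483 lay 3742 bp from CG31668 and had 321 in replicate 1 and 164 in replicate 2. In the 1340 bp gap between blw and CycB, the gene of the mitotic cyclin B, a member reached 481, with 284 in replicate 1 and 199.9 in replicate 2. Near RasGAP1, which encodes a protein that switches Ras off, the signal was 474, with 257 and 216 in replicates 1 and 2. In the gap between CG13321 and Psc, a Polycomb group gene, it was 438, with 259 and 194. The member 5719 bp from eEF1gamma, a subunit of a translation elongation factor, had 398, with 217 and 182, and lay 109 bp from the start of the non-coding RNA gene lncRNA:CR31044. Between Ids, an iduronate sulfatase gene, and sty, the gene of the receptor tyrosine kinase antagonist Sprouty, a member had 345, with 186 and 211. All 7 were in both replicates' lists and stood above the 99.9th percentile of the ranked list of each replicate.

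The rest of the 20 ran from 337 near CG43131 down. CG13896 (335) and hng3 (305) had members 1288 bp apart in the gap between these genes. CG10479 had a member of 328 at 504 bp, the closest to a TSS of all members. The others lay nearest to CG5103 (316), CG7560 (287), CG3149 (285), slp2 (249), CG12684 (247), CheA75a (233), CG5194 (232), CG43401 (227) and CG46443 (225.6), in order of signal. Of these, slp2 encodes a forkhead transcription factor of the segmentation cascade.

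Just inside the limit of 500 bp lay the members of CG10479 at 504 bp, PHDP at 508 bp with a signal of 167 and Msr-110 at 519 bp with 82.3. Just outside it lay peaks at 477 bp from nw with 80.5, at 448 bp from peb with 75.2 and at 444 bp from Poxm with 167.

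The share of members in a replicate's own list was below the share of all peaks in both replicates. The difference between classes was not tested. In replicate 1 they overlapped the list in 173 cases, or 57.1% (51.3 to 62.7%), where 64.6% of all peaks on the arms did. In replicate 2 this was 105, or 34.7% (29.3 to 40.3%), where 39.7% of all peaks did. Both lists held 77 members, or 25.4% (20.6 to 30.7%), against 34.6% of all peaks, and 102 members were in neither. The authors' conservative list held 231 members, or 76.2% (71.0 to 80.9%), against 74.9% of all peaks. Intronic peaks gave 66.5% in replicate 1, 34.5% in replicate 2 and 32.0% in both. Peaks between divergent gene starts gave 80.4%, 56.5% and 51.2%.

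**Figure D1:**
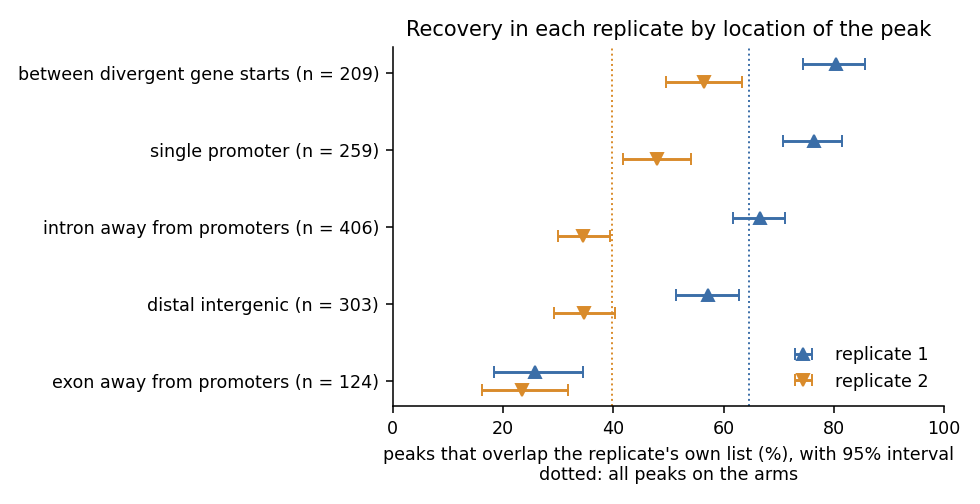
Share of peaks of each location class that overlap the list of replicate 1 (blue, up) and replicate 2 (orange, down), in percent with 95% Clopper-Pearson intervals; dotted lines give all peaks on the arms. Distal intergenic peaks stand at 57.1% and 34.7%, between intronic and exonic peaks in replicate 1.

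Most members ranked near the top of each replicate's regions, with lower quartiles at percentiles 98.6 in replicate 1 and 98.4 in replicate 2. Ranks were not summarised apart for members that missed a list. The members were called from these same libraries, so high ranks there are no independent evidence. A region of the ranked list of replicate 1 lay under 298 members, at a median percentile of 99.2 (signal median 51.0, quartiles 37.9 and 69.2). Replicate 2 had one under 291 members, at a median percentile of 99.3 (signal median 43.5, quartiles 35.6 and 54.6). Over the 286 members with both, the Spearman rho of the 2 signals was 0.345, given as a description, since the members share 2 libraries and were called from both together. With a neighbour, 16 members shared their region of replicate 1 and 18 that of replicate 2, and 22 members had an interval that overlapped that of another member.

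**Figure D2:**
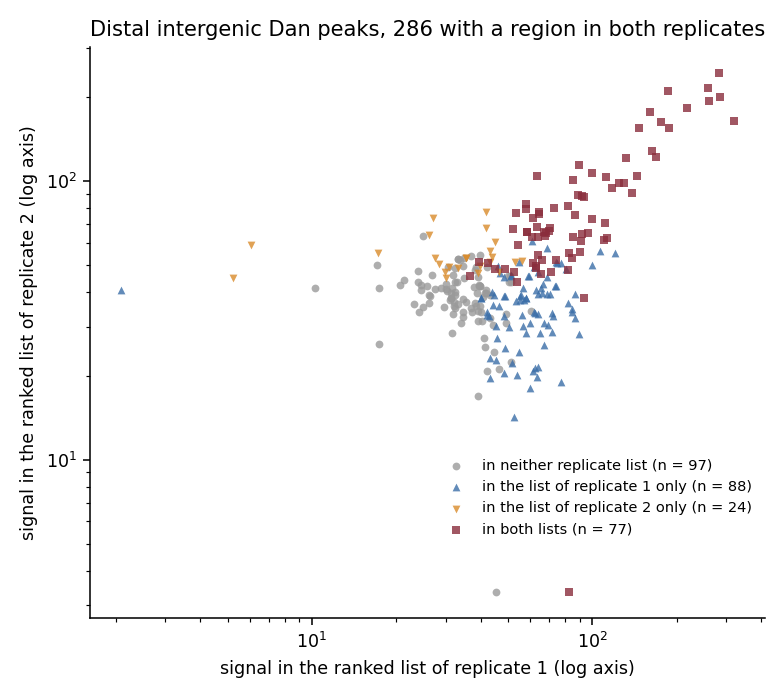
Signal of the 286 members with a ranked region in both replicates, replicate 1 on the x axis and replicate 2 on the y axis, both logarithmic, with symbols for the lists that held them. The 77 members in both lists run up to 321 and 244, with that at 18w apart at 82.3 and 3.36, and the members in neither list crowd at lower signals.

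Recovery differed with signal, which comes from the same libraries as the lists. Of the 101 members with the highest signal, 106.8 or more, replicate 1 held 96.0% and replicate 2 held 69.3%. The 101 in the middle gave 57.4% and 25.7%, and the 101 lowest, up to 79.5, gave 17.8% and 8.91%. The 10 members set apart after their values were seen had a signal under 30, from 3.47 to 21.5, and the next lowest had 34.3. They included CG31206 (5.49) and CG4218 (4.49), and 3 of the 10 were in each replicate's list. A low-signal member at Dr, a homeodomain gene, had 7.24 but shared its replicate regions (58.5 and 65.8) with a neighbour of 115.

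Recovery also differed with GC content. Within 100 bp of the summit the members had a mean GC content of 41.4% ± 9.38 (SD, n = 303), above intronic peaks (39.4%), single promoters (38.1%) and divergent starts (32.9%) and below exonic peaks (52.4%). The 34116 ranked distal regions that were not in the list, called unlisted here, had 45.8% ± 6.82. They had a median signal of 20.4 but ranged up to 904. The 82 members of lowest GC content, up to 34.3%, were in the list of replicate 1 in 79.3% and of replicate 2 in 35.4%. For the next 70 members these shares were 74.3% and 41.4%, and for the next 75 they were 52.0% and 37.3%. The 76 members of highest GC content, from 48.8%, gave 22.4% and 25%, with a median signal of 73.8 against 103 in the lowest group. The part of GC content in the recovery was not tested apart from that of signal.

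Around the summits the members dipped in GC content, and unlisted regions did not. From the 25 bp bin left of the summit, at 39.2%, the mean went up to 47.3% at 100 to 125 bp to the left and 45.8% at the same distance to the right. Unlisted regions were highest next to the summit, at 46.6%, and had 42.0% and 41.1% at 275 to 300 bp on the left and right. Intronic peaks dipped to 35.9%.

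**Figure D3:**
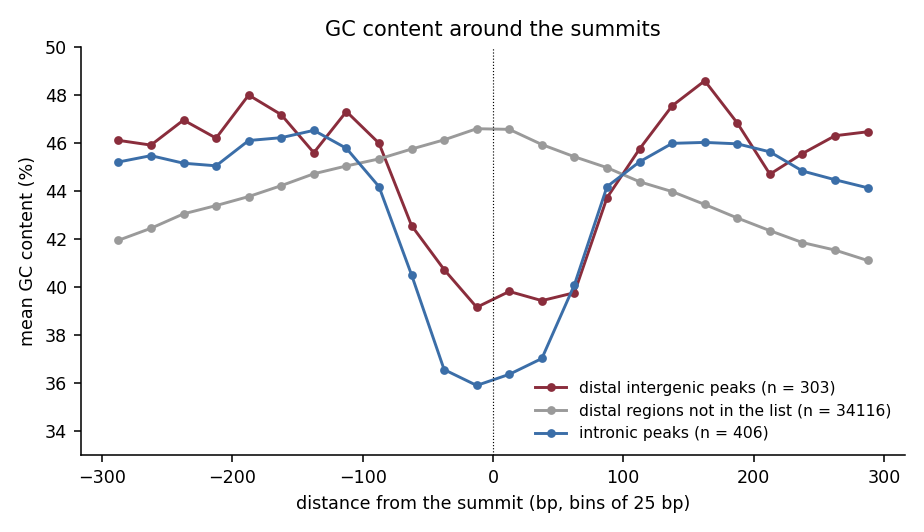
Mean GC content in percent in bins of 25 bp against the distance from the summit, for the 303 distal intergenic peaks (red), the 34116 distal regions not in the list (grey) and the 406 intronic peaks (blue). The axis starts at 33%; the peaks dip at the summit, to 39.2% for the distal ones, while the unlisted regions reach 46.6% there.

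The string CAGTG occurred in most members. Strings were looked for on both strands within 100 bp of the summit, and a match is a description of the letters, not a site. CAGTG was in 173 members, or 57.1% (51.3 to 62.7%), and in 33.7% of unlisted regions. All peaks gave 53.0%, intronic peaks 60.1%, single promoters 49.4% and divergent starts 43.1%. It was chosen because earlier work on these lists had it in common 6-mers, so its frequency is no independent evidence. Below 35% GC content 66.3% of members held it against 28.5% of unlisted regions, and from 35 to 40% these were 66.7% and 30.5%. Between 40 and 45% they were 59.0% and 31.0%. Between 45 and 50% GC they were 35.9% and 34.1%, and at 50% or more 45.3% and 38.3%.

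Among the other searched strings some were more and some were less frequent in members than in unlisted regions. GAGAGA, the repeat that Trl (GAGA factor) binds, was in 14.2% of members (10.5 to 18.6%) and 6.88% of unlisted regions. In the 3 bins of GC content below 45% it was in 15.9 to 20.5% of members and in at most 6.99% of unlisted regions. From 45 to 50% they were 5.13% and 7.45%, and at 50% or more 7.81% and 6.71%. It was in 12.3% of intronic peaks and 11.0% of all peaks, at single promoters in 15.4%, and between divergent starts in 1.91%. GCCAT, the core of Pho sites, was in 30% of members and 43.7% of unlisted regions, and the CA repeat CACACACA in 2.64% and 6.33%. For these 2 strings intronic peaks gave 30.3% and 3.20%, and all peaks 29.0% and 2.46%. The Zelda string CAGGTAG, known from early zygotic enhancers, was in 4 members, or 1.32% (0.361 to 3.35%), and in 0.888% of unlisted regions. TGCATACTT, from Su(Hw) sites, was in 0 of 303 members, which by the limit of 3 counts used here for a count of 0 allows a share of up to 0.990% (upper Clopper-Pearson bound 1.21%), and in 0.440% of unlisted regions. The GATA string GATAAG was in 6.93% and 6.79%, the homeodomain core TAATTA in 9.24% and 11.0%, and the E-box CANNTG in 61.1% and 68.3%. DREF, M1BP and CTCF strings were each in 2 members, or 0.660% (0.0800 to 2.36%). In unlisted regions they were in 0.290%, 0.314% and 0.586%, and in all peaks in 0.999%, 0.922% and 0.846%.

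Longer forms of the core were picked after the values were seen, so these shares only describe the members. TCTCAGTG was in 28 members, or 9.24%, and in 0.847% of unlisted regions, 7.39% of intronic peaks and 0.478% of divergent ones. None of the 28 lay in a transposable element or had a central 101 bp found again elsewhere on the arms. CAGTGTA was in 12.2% of members and 2.02% of unlisted regions, and CAGTGCA in 16.5% and 4.48%. Other peaks held these 2 strings too. Intronic peaks gave 11.3% and 14.3%, and all peaks 9.07% and 11.1%. Among 6-mers in 15 or more members, AGTGTA had the highest ratio, with 70 members (23.1%) against 6.53% of unlisted regions. Only 2 of the 20 6-mers with the highest ratios held the core. The 6-mers were not counted in other classes of peaks, and the ratios were not matched for GC content.

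Copies of the core pointed away from the summit more often than toward it. In members 178 copies with a centre 25 to 125 bp from the summit read outward and 104 read inward, so 63.1% (57.2 to 68.8%) were outward. Direction was looked at after the values were seen and was not tested. Intervals for direction, here and for the extended strings, treat each copy as separate. A member can hold several copies and overlapping members can share one, so these intervals may be too narrow. Unlisted regions gave 50.1% (49.3 to 50.9%), intronic peaks 54.7% (49.6 to 59.7%), single promoters 51.1% and divergent starts 38.8%. An outward copy stood in 127 members (41.9%), 18.7% of unlisted regions, 39.9% of intronic peaks, 33.6% of single promoters and 25.8% of divergent starts. On both sides of the summit it stood in 41 members (13.5%) and 1.11% of unlisted regions. The same held for 9.61% of intronic peaks, 7.72% of single promoters and 1.91% of divergent starts. The outward share was 64.0% in the 77 members in both replicates' lists and 61.2% in the 102 in neither.

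In the extended strings the direction was nearly one-sided. Of TCTCAGTG copies at the same distances, 33 in members read outward and 2 inward, or 94.3% (80.8 to 99.3%), where unlisted regions gave 54.6% (48.8 to 60.2%). CAGTGTA gave 46 outward and 4 inward, or 92.0% (80.8 to 97.8%), against 51.9%. CAGTGCA gave 50 and 11, or 82.0% (70.0 to 90.6%), against 51.4%. Intronic peaks had 94.9%, 94.9% and 87.0% for the 3 strings, so the direction was also seen away from intergenic sequence. TCTCAGTG read outward on both sides of the summit in 5 members. By position, plus-strand copies of the core were most frequent 75 to 100 bp right of the summit, with 10.6 per 100 members, and minus-strand copies 75 to 100 bp left of it, with 9.57. Unlisted regions had 2.52 and 2.51 there.

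**Figure D4:**
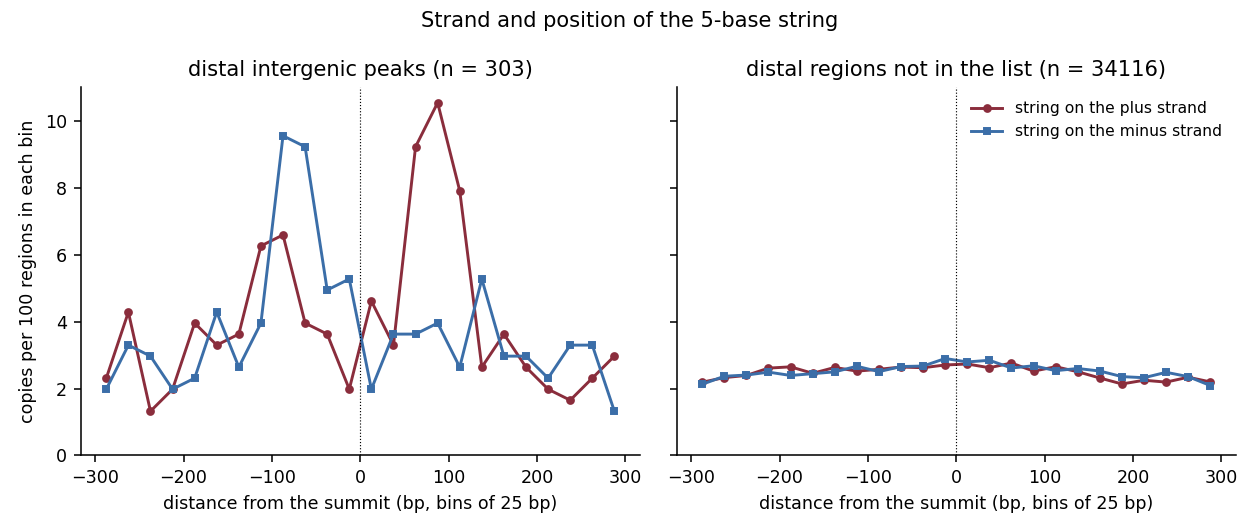
Copies of the 5-base core per 100 regions in bins of 25 bp against the distance from the summit, on the plus strand (red) and the minus strand (blue), for the 303 distal intergenic peaks (left) and the 34116 distal regions not in the list (right). Copies in the peaks crowd to the left on the minus strand and to the right on the plus strand, up to 10.6 per 100, while unlisted regions stay between 2.09 and 2.90 on both strands.

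The distances of members to genes had a median close to that of unlisted regions. Their median distance to a TSS was 8012 bp (quartiles 3020.5 and 19196, maximum 524572), and that of unlisted regions was 7695 bp. The gap between the flanking genes had a median of 27292 bp, and 25471 bp for unlisted regions. Per 100 ranked distal regions, of which 0.880% were members where 1.02% of ranked regions anywhere on the arms were in the list, 1.19 (0.716 to 1.85) were members at 500 to 1000 bp and 1.13 at 1000 to 2000 bp. From 2000 to 50000 bp the value ran from 0.610 to 0.901. Beyond 50000 bp it was 1.42 (1.05 to 1.87), from 48 members with a mean GC content of 51.4% and a median signal of 76.9. Flanking genes were divergent for 29.7% of members and 23.3% of unlisted regions, tandem for 46.2% and 51.2%, and convergent for 20.1% and 22.6%.

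Non-coding annotation touched few members. The start of a non-coding RNA gene lay within 500 bp of 11 members, or 3.63% (1.83 to 6.40%), and of 1.69% of unlisted regions. Introns of non-coding RNA genes held 19 members, or 6.27%, and 3.24% of unlisted regions. Several of the 19 lay between DIP1 and CG40813 on X and had lncRNA:flam as their nearest non-coding RNA start. The 19 thus do not stand for as many genes. Annotated transposable elements held 19 members, or 6.27% (3.82 to 9.62%), and 3.63% of unlisted regions. The central 101 bp of 8 members occurred more than once on the arms. How reads were placed in such sequence is not known, since the aligner is not given.

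Arm 2L had 79 members, 11.1 per Mb of sequence that meets the location rule, the most of the 7 arms, and 1.22% of its ranked distal regions. Arm 3L had 78 (8.30 per Mb), 2R had 50 (6.53), 3R had 52 (6.45), X had 39 (6.41) and Y had 5 (1.96). Chromosome 4 had 0 of 16 ranked distal regions, which by the limit of 3 counts, not an exact bound, allows a share of up to 18.8%. Median signals lay between 85.5 and 94.6 on the 6 arms with members. Of the 5 members on Y, 4 were in the list of replicate 2 and 2 in that of replicate 1.

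The 57 members in gaps over 100 kb or beyond the last gene of an arm differed in several measures from the 246 in smaller gaps. This division was made after the values were seen. Their mean GC content was 51.3% ± 7.24, against 39.1% ± 8.28, and the median signal 74.9 against 94.2. Replicate 1 held 28.1% of them against 63.8%, and replicate 2 held 24.6% against 37.0%. The core was in 36.8% against 61.8%. The gap of 512909 bp between DIP1 and CG40813 on X held 13 members, the most of any gap, with signals of 6.13 to 199.2, of which 3 were in each replicate's list. Of the 19 members in transposable elements, 4 were in the list of replicate 1 and 7 in that of replicate 2, at a mean GC content of 52.5%. The part of gap size and repeats in the other measures was not tested.

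Joined where summits lay within 5000 bp, the members formed 248 groups, of which 34 were pairs and 9 held 3 or more, 30 members in all, and the rest were single members. Between CG13321 and Psc on 2R, 3 members within 1330 bp had signals of 438, 187 and 103, and all were in both replicates' lists. Between Ids and sty, 3 within 1212 bp had 345, 116 and 126, with 3 in the list of replicate 1 and 2 in that of replicate 2. CG44362 and CG7560 flanked 4 members with 74.5, 95.6, 168 and 287, of which 3 and 1 were in the lists. Between the odd-skipped family zinc finger genes sob and odd, 3 members within 6851 bp had 133, 98.3 and 76.8. In replicate 1 these had 80.4, 56.7 and 46.4, all in its list, and in replicate 2 they had 48.3, 41.2 and 35.7, none in its list.

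The other groups were weaker or less often recovered. RYBP, which encodes a partner of Polycomb group proteins, and Ppa, an F-box gene, flanked 3 members with 113, 87.8 and 5.71. Marf1 and RpL5, a ribosomal protein gene, flanked 3 with 81.0 to 91.1, of which 2 lay in transposable elements and 1 was in the list of replicate 2 only. At the start of 2R, with no protein-coding gene to their left, 3 members had 52.9 to 98.6. Their nearest TSS, that of DIP-lambda, was 289793 to 292980 bp away. Between DIP1 and CG40813 lay groups of 5, with 34.3 to 111, and of 3, with 6.13 to 72.9. Over all members, 113 had another peak of the list of any class within 5000 bp, and 52 had one within 1000 bp.

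The members' nearest TSSs belonged to 208 protein-coding genes, 6.39% of the 3256 that are nearest to any ranked distal region. The gene lists were chosen with earlier results of these data known, and the counts describe them with no test. Transcription factor lists had the most genes. Of 68 patterning transcription factors outside the homeodomain class 16 (23.5%) were nearest to a member, and of 55 homeodomain factors 9 (16.4%). With the list of replicate 2 alone, which holds fewer members, these counts were 8 and 4, with that of replicate 1 alone they were 12 and 8, and with both flanking genes in place of the nearest they were 26 and 15. Genes of these lists have wide surroundings, with 14.3 and 13.6 ranked distal regions per gene against 10.6 over all genes. Per 100 ranked distal regions, 2.77 and 1.74 were members, against 0.880 over all. Over the 27 members of the first list the median signal was 99.3, with 19 in the list of replicate 1 and 10 in that of replicate 2, and over the 13 of the second it was 99.8, with 9 and 8.

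**Figure D5:**
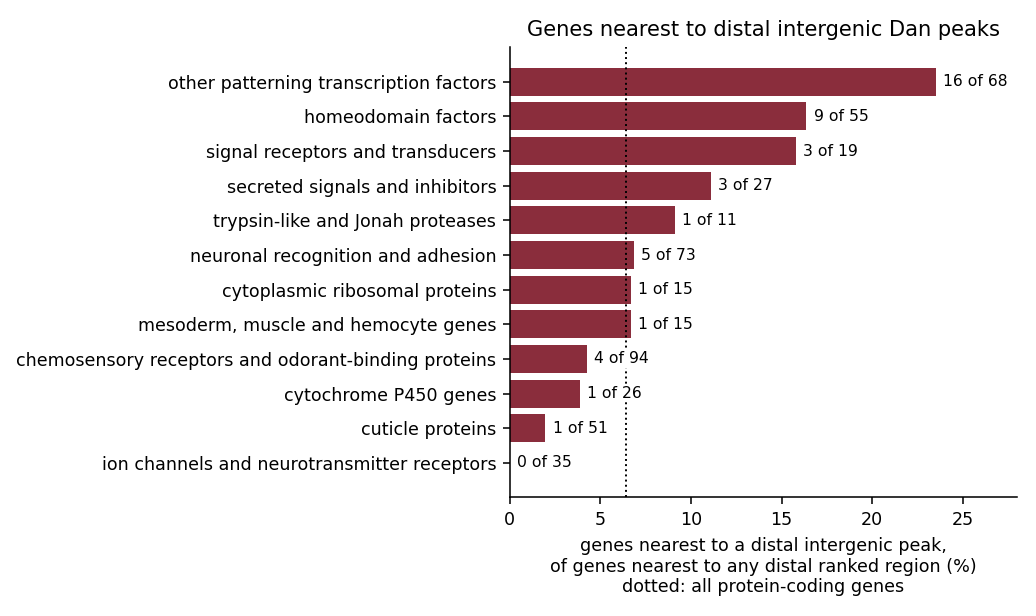
Percent of the genes of each list that are nearest to a distal intergenic peak, among its genes nearest to any ranked distal region, for the 12 lists with 10 or more such genes; the dotted line is the 6.39% of all protein-coding genes. Numbers give the counts, from 16 of 68 for patterning transcription factors to 0 of 35 for ion channels and neurotransmitter receptors.

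Among the patterning factors, hng3 had the strongest member (305, with 146 in replicate 1 and 156 in replicate 2). The member near slp2, between slp1 and slp2, had 249 (132 and 121). The T-box gene mid had a member of 215 at 15208 bp (117 and 94.6). All 3 were in both replicates' lists. The BTB zinc finger gene chinmo, a regulator of neuronal identity, had 4 members between 1526 and 18369 bp from its start. Their signals were 170.1, 117, 106 and 103, with 99.6, 74.0, 61.1 and 72.4 in replicate 1 and 73.0, 42.1, 63.0 and 32.7 in replicate 2. All 4 were in the list of replicate 1 and 2 in that of replicate 2.

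Among homeodomain factors, tup, a LIM-homeodomain gene of heart and neuron development, had members of 185, 99.8 and 72.5 at 9023, 18202 and 25616 bp. In replicate 1 they had 89.0, 39.5 and 39.8 and in replicate 2 they had 89.0, 51.1 and 35.6, and the weakest was in neither list. PHDP had a member of 167 (81.6 in both replicates), and the head gap genes oc and ems had strongest members of 147 (72.8 and 80.0) and 146 (64.6 and 77.5). The strongest member of each of these 4 genes was in both replicates' lists.

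Secreted signals had 3 of 27 genes (11.1%, beside 6.39% of all genes), with 1.98 members per 100 ranked distal regions. These were vn, a ligand of the EGF receptor (108), ths, an FGF ligand (107 and 80.7), and wg, the Wingless ligand (73.2 and 63.6). All 5 of these members were in the list of replicate 1 and 1, that of vn, in the list of replicate 2. With the list of replicate 2 alone the count of secreted signals was 1. Receptors and transducers had 3 of 19 (15.8%), which were RasGAP1, the Toll-family receptor gene 18w (130.0) and the Hedgehog receptor gene ptc (112). Per 100 ranked distal regions this list had 0.888 members, close to the 0.880 over all, and its count was 5 with the list of replicate 1 alone. At 18w the list of replicate 2 held an overlapping peak, but the ranked region of nearest summit had a signal of only 3.36 there and 82.3 in replicate 1. Neuronal recognition and adhesion genes had 5 of 73 (6.85%), near the 6.39% of all genes. Per 100 ranked distal regions this list had 0.657 members, below the 0.880 over all. The strongest were those of dpr20 (115), DIP-lambda (98.6, at 289793 bp), CG45263 (86.3) and ds (81.0). With the list of replicate 2 alone the count of 5 genes was 1, and with that of replicate 1 alone it was 2. Ion channels and neurotransmitter receptors had 0 of 35, which by the limit of 3 counts, not an exact bound, allows a share of up to 8.57%.

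In the other lists between 0 and 4 genes were nearest to a member, to be read beside the 6.39% of all genes. Chromatin regulators had 1 of 5, ph-d of the Polycomb group (142), and cell cycle genes 2 of 3, CycB and Myc (130), all in both replicates' lists. Of 15 mesoderm, muscle and hemocyte genes 1 (6.67%) had a member, which was bin (90.1), a gene that another list holds too. Per 100 ranked distal regions this list had 0.980 members, against 0.880 over all. Of 15 cytoplasmic ribosomal protein genes 1 (6.67%) had one, RpL38 (72.6), and of 11 trypsin-like and Jonah proteases 1 (9.09%), Jon65Aiii (74.4). Cuticle proteins had 1 of 51 (1.96%), Cpr76Ba (88.6), and cytochrome P450 genes 1 of 26 (3.85%), Cyp6v1 (168). Chemosensory receptors and odorant-binding proteins had 4 of 94 (4.26%), which were Gr93a (131), Obp56i (115), Or83c (74.6) and Or74a (68.6). With the list of replicate 2 alone this count was 1, and with that of replicate 1 alone it was 2. The counts of 1 for ribosomal proteins and proteases were 0 with either replicate's list alone, those for bin's list and for cuticle proteins were 0 with that of replicate 2, and that for bin's list was 2 with that of replicate 1. Heat shock and chaperone genes had 0 of 3, mitochondrial ribosomal protein genes 0 of 2 and small immune peptides 0 of 5, too few to limit a share.

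With dan as its nearest TSS, 1 member lay 20337 bp from that start, at position 25164046 of 3R. It had a signal of 84.3 (50.4 in replicate 1 and 43.5 in replicate 2) and was in neither replicate's list. The gap that held it was flanked on the left by danr, and dan did not flank it. Of the other peaks nearest to dan, that in an intron had 269 and was in both lists. A further intronic peak had 61.8 and a peak 58 bp from the start had 68.5, and neither was in a replicate's list. No peak of the list on the arms had the start of danr as its nearest TSS. Whether the inserted construct carries any of these regions is not given in the sources used here.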

How the data were processed

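The authors deposited, for 2 biological replicates of 1 group, lists of ranked regions and of regions past a threshold, with a signal, a score and a −log10 q per region, on dm6 per the labels. For the peak caller, aligner, versions and depth, nothing is given in the sources used here. The deposited signal ranks regions within a list. Scores, as deposited, rise with the negative logarithm of the irreproducible discovery rate (IDR), and the lowest value in the list used, 830, is an IDR of 0.01. The deposited −log10 q served only as an alternative order. The list used was called on both replicates together, and all its 1396 peaks were found in 1 ranked list, which gave the 34419 distal ranked regions. The other such ranked list, and the 4 columns of signal per set of calls in the ranked lists, were not used. Of 1577 regions of that ranked list at or under the threshold, 181 were not in the thresholded list.

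Members and gene lists were chosen with earlier results of these data known. Summits were placed on Ensembl release 115 (BDGP6.54, 13968 protein-coding genes on the arms), with transposable elements not counted as exons, and sequence came from RefSeq Release 6. Overlaps needed 1 bp. Replicate values are those of the overlapping ranked region with the nearest summit in that replicate's own list. Of the symbols in the 17 lists, 12 matched through older names and 1 did not match. Named are the nearest genes of the 20 strongest members, genes flanking groups of 3 or more, up to 4 genes per list with the strongest members, and dan with danr. Beyond that rule, CG31206, CG4218, Dr, slp1, lncRNA:flam and the genes at the distance limit were named after their values were seen. The 4 longer strings added to the 18 first written were also chosen after that. Sequences shown were picked by a like rule, and those with the extended string after values were seen. The window of 1 member is not reported here. Tables were handled in pandas 2.3.3 and numpy 2.4.6 under Python 3.11.15, intervals came from scipy 1.17.1 and plots from matplotlib 3.10.9, and the location, overlap and string functions were tested on simulated regions. Alternatives were the conservative list, each replicate alone, a stricter IDR, other distances, windows and overlaps, and all annotated genes. With 1 group there is no batch to compare.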

Additional observations from a re-analysis of the deposited data

How the results depend on the processing

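The number of members went from 303 to between 108 and 207 when 1 replicate's own list was used, and to 83 at an IDR of at most 0.001. Their share of peaks, 23.3% as reported, was 20.1 to 20.7% with 1 replicate, 17.8% at the stricter IDR, 26.0% with a limit of 250 bp and 21.0% with starts and bodies of all annotated genes. Overlap with the list of replicate 1 was 97.6% at the stricter IDR and 63.8% in gaps of at most 100 kb, and with that of replicate 2 it was 77.1% at the stricter IDR. Mean GC content was 37.6 to 40.9% with 1 replicate, 37.3% at the stricter IDR and 44.6% over 250 bp either side. CAGTG was in 59.3 to 63.3% with 1 replicate, 65.1% at the stricter IDR and 21.8% within 50 bp, and GAGAGA in 14.8 to 16.4%, 24.1% and 3.63%. The share of CAGTG copies reading outward was 65.6 to 66.7% with 1 replicate, 69.8% at the stricter IDR and 56.7% from 25 to 250 bp, above 50% in all 8 alternatives run. Nearest genes numbered 85 to 161 with 1 replicate, 70 at the stricter IDR and 368 with both flanking genes. Counts per gene list moved too, and those that changed by over 1.5 times with 1 replicate stand beside the counts. Groups of 3 or more numbered 16 when joined at 10000 bp. Of 69 alternatives to these main values, 45 stayed close and 24 moved. The cause was not tested, apart from smaller windows and fewer peaks, which follow from the setting. The alternatives on gap size, signal, transposable elements and direction were chosen after the data were seen.

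No paired analysis was possible because there is 1 group and the replicate numbers pair nothing. The depth is unknown, so how far it limits recovery in a replicate cannot be given. A summit of a broad region, a wrong nearest gene, or a region that the reference holds in several copies would change single entries.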

Other observations

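Gaps between neighbouring genes with 3 or more members were picked out after the values were seen. Between Doc2 and Doc1, T-box genes of the amnioserosa and heart, a gap of 22128 bp held 3 members with signals of up to 128 (median 121), of which 2 were in each replicate's list. The proapoptotic genes grim and rpr flanked 3 members in 93117 bp, with up to 129 (median 95.7), 3 in the list of replicate 1 and 1 in that of replicate 2. Beside drm, an odd-skipped family gene, 3 members in the gap up to CG43815 reached 108, with 2 and 1 in the lists. Between RFeSP and chinmo 4 members reached 170.1, and between hng3 and CG13898 4 reached 165. In wide gaps the recovery was lower at some: between CG41242 and RYa, over 282943 bp, 4 members of up to 92.4 were in neither list. On Y, 4 members between ARY and Ppr-Y reached 139, with 2 in the list of replicate 1 and 3 in that of replicate 2.

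At the 468 peaks at single and divergent promoters, which are no members, the nearest TSS lay at a median of 145 bp and read away from the summit in 84.0%. Of their 179 outward copies of CAGTG, 11 (6.15%) lay within 10 bp of an annotated start.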
